A study of Homo sapiens with 4 samples.

Results

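The large ribosomal subunit is built in the nucleolus around its precursor rRNAs by a long series of assembly factors that join, remodel and leave the particle. Early factors fold the pre-rRNA, GTPases and RNA helicases drive its remodelling, and the last factors accompany the particle through the nucleus and the nuclear pores and are stripped off in the cytoplasm. LAS1L, the protein depleted here, cleaves the internal transcribed spacer that separates the large-subunit rRNAs in their common precursor. Such factors are highly expressed in growing tumour cells.

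The genes examined were 42 assembly and export factors of the large-subunit precursor, listed by name for their role and found by gene symbol, or older alias, in the annotation of the array's probes. No measured value enters that rule, but the list was drawn up with earlier results of these data known. Of the 42 genes, 38 had a named probe and all 38 were bright enough to be tested, among 10466 genes tested in all. DDX18, EBNA1BP2, GNL3 and ISG20L2 had no named probe and were not analysed here. A gene with several probes was represented by its brightest probe, and 37 of the 38 were above background on all 4 arrays. AFG2A, listed under its older name SPATA5, was the exception.

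The 4 arrays were of HCT116, a long-established line from a human colorectal carcinoma, harvested 72 h after reverse transfection with 40 nM siRNA. One group of 2 arrays received Las1L siRNA, with 1 array for siRNA #1 and 1 array for siRNA #2. The other group of 2 arrays received 1 control siRNA in duplicate. The labels give no other modification of the cells, the knockdown was transient, and nothing states that the duplicates were separate cultures, so p-values measure only the spread between these samples, which may be technical. The spread within the Las1L group also includes any difference between the siRNAs. Total RNA was hybridised to Illumina HumanHT-12 v4 bead chips. Values are normalized signals on a linear scale, and no probe's level is compared with another's. Each array has the same median signal, so a shift shared by most genes would not show. In bulk RNA fewer cells of a kind and less RNA per cell cannot be told apart.

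The siRNAs are shown because they define the groups. Each is 19 bases long before a dTdT overhang, written 5′ to 3′ as the labels give it.
Las1L siRNA #1: cugauacgcuguaagcucu
Las1L siRNA #2: cauuuauacccagagugga
Control siRNA: gaucauacgugcgaucaga

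LAS1L, the targeted gene, had signals of 211.5 with siRNA #1 and 158.1 with siRNA #2, against 770 and 717.5 with control siRNA, which left 28.4% and 21.3% of the mean control signal. The log2 fold change was -2.02 (SE 0.14, adjusted p = 2.33e-07 in the limma trend fit). On each array 17280 to 17284 probes lay above a background limit of 28.1 signal units. Every array also had a median of 14.9 and 26.9% of probes below 0. Such equal counts thus come with the normalized values and are no check of the arrays. Across tested probes, log2 signals correlated at 0.987 between the Las1L arrays, at 0.985 between the control arrays, and at 0.974 to 0.975 across groups. Epithelial markers EPCAM, CDH1, KRT8, KRT18, KRT19 and CDX2 were above background on all arrays, while CDX1, CEACAM5 and VIL1 were not above it on any. CDH1, the adhesion protein E-cadherin, rose by 0.43 on the log2 scale (adjusted p = 0.033 in limma with the trend). Of 13 measured markers of fibroblasts, endothelium and leukocytes, 0 were above background on all 4 arrays and 8 were above it on none. CD14, COL1A1 and LYZ were above it on 3 arrays, COL1A2 on 2 and DCN on 1. The summed positive signal of the 13 was 189.9 and 195.8 on the Las1L arrays and 199.3 and 243.2 on the control arrays.

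Setting Las1L siRNA against control siRNA asks how transcripts of the other assembly factors stand when LAS1L is depleted. Most assembly factors had small negative fold changes, and few of them passed a test. The median log2 fold change of the 38 was -0.18, which stands beside -0.00 over all tested genes, and the range ran from -0.95 to 0.30. Of the 38 factors, 31 had a negative log2 fold change, as had 5236 of the 10466 tested genes.

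Both Las1L arrays lay below both control arrays for 24 of the 38 factors, or 63.2%, while the same was true of 29.8% of all tested genes. Both Las1L arrays lay above both control arrays for 6 factors, or 15.8%, against 29.9% of all tested genes. The remaining 8 overlapped. These genes share 4 arrays and are not independent, so the shares describe the list and are not a test of it.

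limma was fitted to the whole table of probes both without and with an intensity trend. The fit without an intensity trend passed 0 of 38 factors at an adjusted p of 0.05, and it passed 0.0% of all tested genes. At an unadjusted p under 0.05 it held 6 of the 38 factors and 2676 of all 10466 genes. In the trend fit the variance assumed for a probe varies with its mean signal, and "fell" and "rose" refer to it. In the trend fit 5 of 38 factors fell (13.2%) and 0 rose, while 9.17% of all tested genes fell and 9.64% rose. The share that fell was thus near that of all genes. WDR12, RSL24D1, NOC2L, CEBPZ and SDAD1 were the 5.

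Leaving out either siRNA array gave 0 factors, in fits where 1 Las1L array remains and the spread comes from the control pair alone. Log2 fold changes were then -0.94 and -0.84 for WDR12 and -0.71 and -0.78 for RSL24D1, without siRNA #1 and without siRNA #2, so the lost calls do not show weaker effects. Leaving out the first control array gave 3 (WDR12, RSL24D1 and CEBPZ), and leaving out the second gave 4. When every array had to exceed background, limma without the trend passed WDR12, RSL24D1 and NOC2L as lower, 3 of 37 factors, beside 4.52% of 9140 genes.

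**Figure D1:**
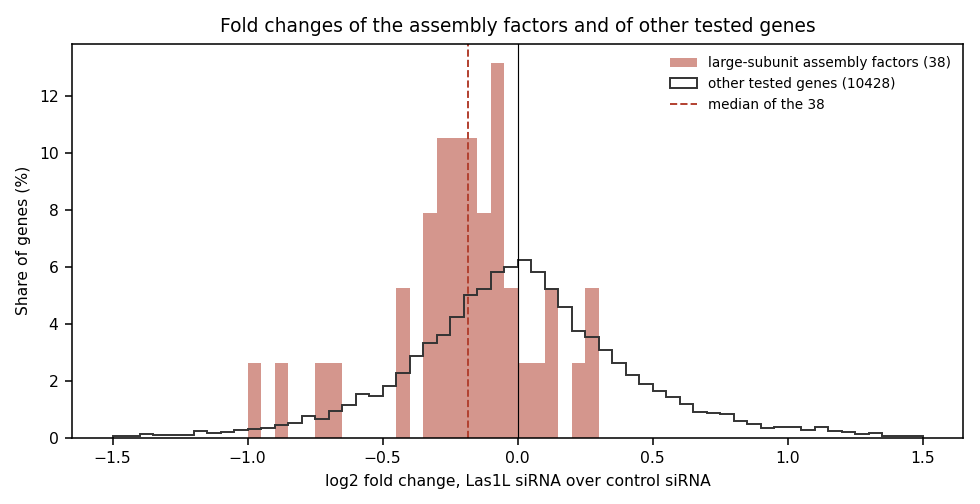
Histogram of log2 fold changes, Las1L siRNA over control siRNA, as a percentage of genes in each bin, for the 38 large-subunit assembly factors (filled) and the other 10428 tested genes (outline). The dashed line is the median of the factors, -0.18, and 82 of the other genes lie beyond the plotted limits of -1.5 and 1.5.

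Promoter windows from RefSeq on GRCh38.p14, 300 bases with 250 before and 50 after the start site, were available for 38 of the 42 genes, with several windows for some. They were searched for CACGTG, the E-box bound by MYC and its relatives, which reads the same on both strands. Among tested genes with a window, 11 of 35 factors held it (31.4%), as did 1095 of 8462 tested genes (12.9%). The median log2 fold change was -0.20 for the 11 factors with the motif and -0.11 for the 24 without it. The first median is the value of NLE1, a dim gene (SE 0.30). The difference was not tested, and the same split over all tested genes is not given here. Of the 5 factors that fell, only SDAD1 held it, at position -228 from the start site, and the windows of WDR12, RSL24D1, NOC2L and CEBPZ did not. A match is a description of letters and not a binding site.

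Promoters are shown for WDR12 and RSL24D1, the factors that fell most, for SDAD1, which fell and holds the motif, and for PES1, a partner of WDR12 that did not pass and holds it 13 bases after the start site. SDAD1 and PES1 were chosen after their values were seen. Capitals mark CACGTG, and each window is written 5′ to 3′ on the gene's strand.
WDR12, chr2:202911624-202911923, - strand: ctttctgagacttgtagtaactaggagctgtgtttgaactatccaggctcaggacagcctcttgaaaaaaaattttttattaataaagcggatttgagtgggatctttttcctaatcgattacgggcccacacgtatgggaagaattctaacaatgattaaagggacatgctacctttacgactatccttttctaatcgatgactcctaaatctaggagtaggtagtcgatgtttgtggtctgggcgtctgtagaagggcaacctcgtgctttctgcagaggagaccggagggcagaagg
RSL24D1, chr15:55196892-55197191, - strand: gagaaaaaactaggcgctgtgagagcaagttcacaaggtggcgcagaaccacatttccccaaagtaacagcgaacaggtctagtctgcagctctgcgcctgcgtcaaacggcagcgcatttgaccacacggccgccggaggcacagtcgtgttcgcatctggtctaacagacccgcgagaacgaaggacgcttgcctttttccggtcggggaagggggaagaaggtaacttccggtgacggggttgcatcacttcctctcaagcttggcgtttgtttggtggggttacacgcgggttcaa
SDAD1, chr4:75990896-75991195, - strand: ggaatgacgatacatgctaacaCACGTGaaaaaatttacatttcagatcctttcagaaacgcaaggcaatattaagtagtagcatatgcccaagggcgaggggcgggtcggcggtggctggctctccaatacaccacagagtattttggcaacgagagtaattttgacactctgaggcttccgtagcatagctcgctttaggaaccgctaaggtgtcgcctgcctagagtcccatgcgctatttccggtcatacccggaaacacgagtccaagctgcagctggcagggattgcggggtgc
PES1, chr22:30591861-30592160, - strand: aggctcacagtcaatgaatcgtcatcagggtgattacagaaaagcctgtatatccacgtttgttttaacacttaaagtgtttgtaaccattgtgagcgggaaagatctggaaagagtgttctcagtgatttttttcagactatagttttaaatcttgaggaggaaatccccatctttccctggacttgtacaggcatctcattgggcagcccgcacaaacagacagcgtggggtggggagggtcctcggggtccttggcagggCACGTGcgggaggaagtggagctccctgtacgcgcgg

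The earliest nucleolar particles are organised by proteins that bind the nascent pre-rRNA, among them the Noc proteins. Its median log2 fold change, -0.31, was the lowest of the 7 stage groups. Of its 8 tested members 2 fell and 0 rose, and 7 had both Las1L arrays below both control arrays, shares to be read beside the 9.17% and 29.8% of all tested genes. With 8 genes in the group these counts are a description.

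NOC2L, the Noc2 homologue, which is also known as a histone-binding inhibitor of acetylation that interacts with p53, had signals of 169.9 with siRNA #1 and 165.3 with siRNA #2, against 291.7 and 240.1 with control siRNA. Both siRNA arrays were lower than either control, by more than the gap between the controls. The log2 fold change was -0.66 (SE 0.15, n = 2 arrays each, adjusted p = 0.0083 in limma with the trend), and it no longer passed when the first control array was left out (adjusted p = 0.134 in limma with the trend).

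CEBPZ, the homologue of yeast Noc1, had signals of 1873 with siRNA #1 and 1813.9 with siRNA #2, against 2411.8 and 2580.8 with control siRNA. The groups did not overlap and each was tight. CEBPZ fell by 0.44 on the log2 scale (SE 0.09, adjusted p = 0.0038 in limma with the trend). NOC3L, the Noc3 homologue, gave 1103.5 and 1231.3 with Las1L siRNA, against 1436.5 and 1350.3 with control siRNA, with a log2 fold change of -0.26 and an adjusted p of 0.0946 in the limma trend fit.

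RBM28, the homologue of yeast Nop4, which binds early particles, had signals of 257.8 and 244.3 with Las1L siRNA, against 318.1 and 308.7 with control siRNA. PAK1IP1, the homologue of yeast Mak11, gave 1515 and 1311.6 with Las1L siRNA, against 1885.1 and 1625.2 with control siRNA. Neither passed, with log2 fold changes of -0.32 for RBM28 and -0.31 for PAK1IP1, although all Las1L arrays were lower than all control arrays for each. MAK16, another early factor, stood at -0.27 on the log2 scale and missed the threshold too.

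RRP1 and RRP1B are the human paralogues of a single yeast factor of early large-subunit processing. RRP1B had signals of 185.7 and 178 with Las1L siRNA, against 220.2 and 231.6 with control siRNA. RRP1 had 256.8 and 277.3 with Las1L siRNA, against 246.3 and 236.9 with control siRNA. The paralogues thus lay on opposite sides, with log2 fold changes of -0.31 for RRP1B and 0.14 for RRP1, but neither passed and the difference between them was not tested.

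**Figure D2:**
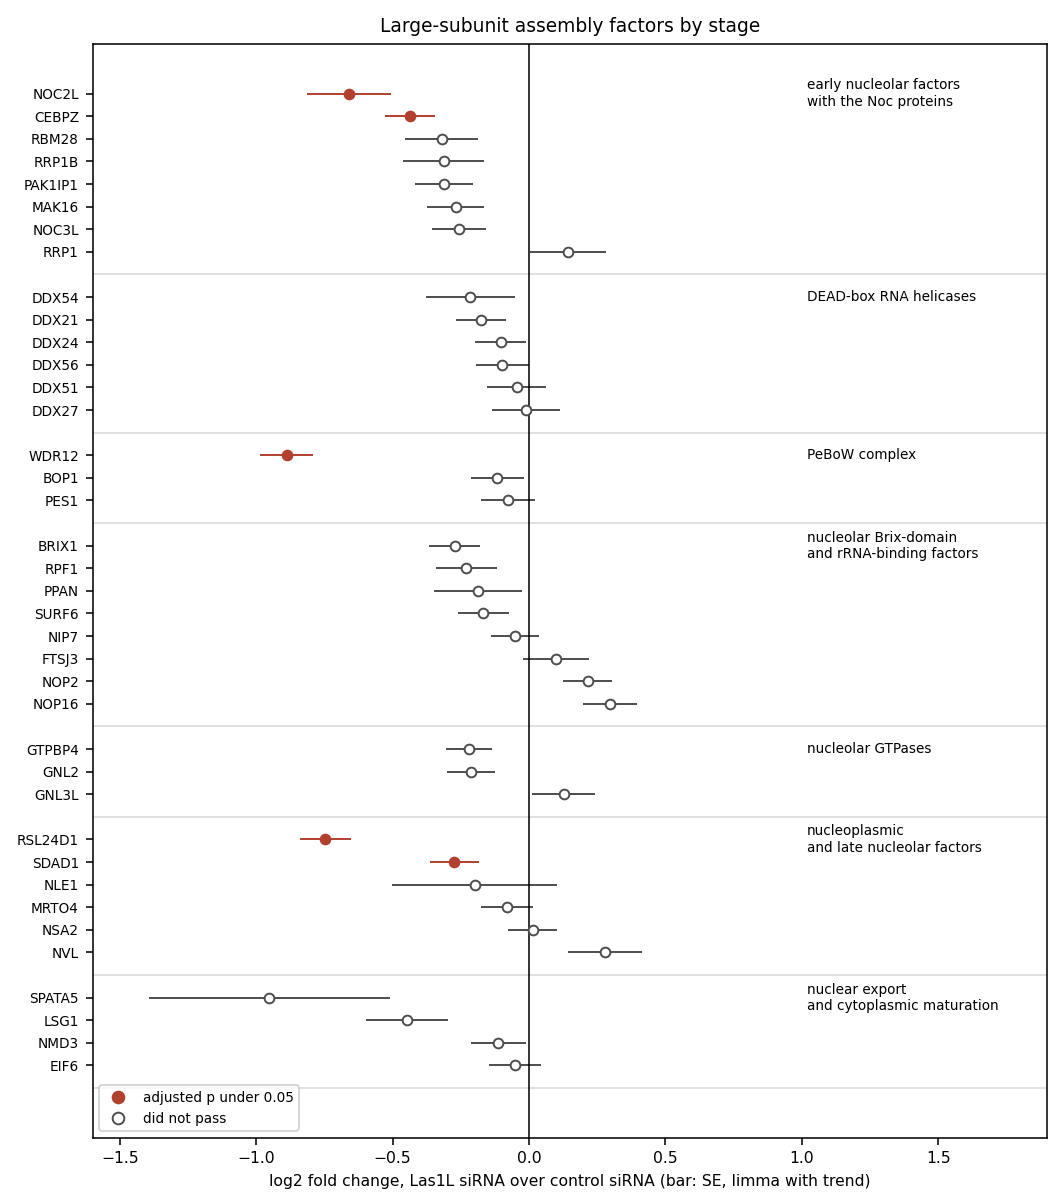
Log2 fold change of each tested factor, Las1L siRNA over control siRNA (horizontal axis), with its standard error from limma with an intensity trend, grouped by assembly stage down the page. Filled points are the 5 factors that fell (NOC2L, CEBPZ, WDR12, RSL24D1 and SDAD1), and open points did not pass.

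The PeBoW complex of PES1, BOP1 and WDR12 joins the particle in the nucleolus and is needed for processing of the spacer that LAS1L later cleaves. Of its 3 subunits 1 fell, beside 9.17% of all tested genes. WDR12, the WD-repeat subunit, had signals of 967.3 with siRNA #1 and 898.8 with siRNA #2, against 1748.8 and 1703.3 with control siRNA. The Las1L arrays kept 56.0% and 52.1% of the mean control signal. WDR12 fell by 0.89 on the log2 scale (SE 0.10, adjusted p = 1.65e-05 in limma with the trend, and adjusted p = 0.0612 in limma without it). Its second probe gave 835.3 and 826.9 with Las1L siRNA, against 1488.7 and 1415 with control siRNA, a log2 fold change of -0.80, so both probes moved alike.

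The partners of WDR12 were close to control. PES1, the pescadillo subunit, had signals of 1189.8 and 1282.4 with Las1L siRNA, against 1355 and 1252.1 with control siRNA. BOP1, a scaffold subunit, had 3457.8 and 4153.3 with Las1L siRNA, against 4033.8 and 4179.7 with control siRNA. The groups overlapped for both genes. Log2 fold changes were -0.08 for PES1 (SE 0.10) and -0.12 for BOP1 (SE 0.10), and neither passed. The difference between the subunits was not tested.

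DEAD-box helicases unwind pre-rRNA and its pairing with guide RNAs, and some help release other factors. Of 6 tested helicases 0 fell and 0 rose, beside 9.17% and 9.64% of all tested genes. Their median log2 fold change was -0.10, with a range of -0.21 to -0.01. DDX54 had signals of 162.4 and 153.5 with Las1L siRNA, against 197.4 and 170 with control siRNA. DDX21 had 2862.3 and 2662.1 with Las1L siRNA, against 3253 and 2993.7 with control siRNA. For DDX54, DDX21, DDX24 and DDX56 all Las1L arrays lay below all control arrays, but none of them passed. That is 66.7% of the 6 helicases, beside 29.8% of all tested genes, and a description of few genes. DDX51 (log2 fold change -0.05) and DDX27 (-0.01) overlapped between groups. DDX51 depended on the probe, since its dimmer one gave 90.2 and 103.8 with Las1L siRNA, against 141.9 and 138.8 with control siRNA, which is -0.54 on the log2 scale (adjusted p = 0.0692, limma trend fit, not past the threshold).

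The nucleolar factors that follow bind or modify the rRNA of the particle, and lay on both sides of control. Of 8 tested members 0 fell and 0 rose, beside 9.17% and 9.64% of all tested genes. Both Las1L arrays lay below both controls for 5 (62.5%) and above both for 3 (37.5%). Over all tested genes these shares were 29.8% and 29.9%. The median log2 fold change was -0.11, and counts from 8 genes are a description. BRIX1, PPAN and RPF1 share the Brix domain that binds rRNA. BRIX1 had signals of 4156.5 and 3713.2 with Las1L siRNA, against 4937.4 and 4562.2 with control siRNA. Its log2 fold change was -0.27 by this probe and -0.25 by the second, with an adjusted p of 0.0557 in the limma trend fit. RPF1 had a log2 fold change of -0.23, PPAN one of -0.19 and SURF6 one of -0.17, none past the threshold.

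Of the 6 factors above both controls, 3 belonged to this group, NOP16, NOP2 and FTSJ3. NOP16 had signals of 1579.4 with siRNA #1 and 1669.6 with siRNA #2, against 1411.6 and 1237.2 with control siRNA. Its log2 fold change of 0.30 (SE 0.10) was the highest of the 38 and just missed the threshold (adjusted p = 0.0537, limma trend fit). The second NOP16 probe gave 1545.8 and 1402.9 with Las1L siRNA, against 1399.4 and 1508.7 with control siRNA, a log2 fold change of 0.02, so the probes did not show the same shift.

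NOP2, a methyltransferase of large-subunit rRNA, had signals of 2746.8 and 2939.5 with Las1L siRNA, against 2356.7 and 2543.3 with control siRNA, with a log2 fold change of 0.21 and an adjusted p of 0.126 in the limma trend fit. Of its 3 dimmer probes, 2 had positive log2 fold changes of 0.06 and 0.29, and the dimmest, near background, had one of -0.46. NIP7, which binds precursor rRNA, had 2402.1 and 2369.2 with Las1L siRNA, against 2509.6 and 2436.3 with control siRNA, with a log2 fold change of -0.05. FTSJ3, another rRNA methyltransferase, had a log2 fold change of 0.10.

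Nucleolar GTPases act as placeholders and timers on the maturing particle. Of 3 tested GTPases 0 passed, where 9.17% of all tested genes fell and 9.64% rose. GTPBP4, the homologue of yeast Nog1, had signals of 4911.1 and 4799.1 with Las1L siRNA, against 5608.5 and 5699.8 with control siRNA. GNL2, the homologue of yeast Nog2, had 3989.3 and 4053.5 with Las1L siRNA, against 4849.4 and 4480.1 with control siRNA. Both had all Las1L arrays below all control arrays, as had 29.8% of all tested genes. Log2 fold changes were -0.22 for GTPBP4 (adjusted p = 0.0927 in limma with the trend) and -0.21 for GNL2. GNL3L, a paralogue of nucleostemin, lay on the other side, with log2 fold changes of 0.13 and 0.28 by its 2 probes.

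Factors of the late nucleolar and nucleoplasmic particle included the second largest fall among those that passed. RSL24D1, the homologue of yeast Rlp24, holds the place of a ribosomal protein of the L24 family until the particle reaches the cytoplasm. RSL24D1 had signals of 3938.3 with siRNA #1 and 4129.2 with siRNA #2, against 7293.8 and 6283.3 with control siRNA. Both Las1L arrays were far below the lower control, at 58.0% and 60.8% of the control mean. RSL24D1 fell by 0.75 on the log2 scale (SE 0.09, adjusted p = 6.05e-05 in limma with the trend, and adjusted p = 0.0827 in limma without it). RefSeq names 11 pseudogenes of RSL24D1, 7 of NSA2, 4 of SDAD1, 3 of WDR12 and 2 of NOC2L, and whether the probes also detect such copies was not tested.

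SDAD1, the homologue of yeast Sda1, a factor of nuclear maturation and export, had signals of 2161 and 2286.1 with Las1L siRNA, against 2691.2 and 2682.7 with control siRNA. The controls were almost equal and both Las1L arrays were lower. SDAD1 fell by 0.27 on the log2 scale (SE 0.09), just inside the threshold (adjusted p = 0.0473 in limma with the trend), and it did not pass when any 1 of the 4 arrays was left out (adjusted p from 0.112 to 0.313 in limma with the trend). Its log2 fold change then lay between -0.31 and -0.23, and each of these fits has 1 group with a single array. Values just outside were those of LSG1, NOP16, BRIX1 and PAK1IP1, 4 factors with adjusted p between 0.05 and 0.06.

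The other 4 tested factors of this stage did not pass. NVL, the AAA ATPase that strips early factors from the nucleolar particle, had signals of 327.5 and 390.5 with Las1L siRNA, against 304.5 and 284.8 with control siRNA. Its log2 fold change was 0.28 (SE 0.14, adjusted p = 0.182 in limma with the trend), with siRNA #2 further from the controls than siRNA #1. MRTO4, which holds the place of the stalk protein P0, had 1289.9 and 1256.6 with Las1L siRNA, against 1325.1 and 1368.6 with control siRNA, a log2 fold change of -0.08. NSA2 had a log2 fold change of 0.01. NLE1, whose yeast homologue Rsa4 is pulled off the particle by the giant ATPase MDN1, was dim, and its control arrays at 51.8 and 99.4 enclosed both Las1L arrays at 66.3 and 59.

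In the export and cytoplasmic stage 0 of 4 factors passed, and the median log2 fold change was -0.28. Over all tested genes 9.17% fell and 9.64% rose, so a count of 0 of 4 is a description. LSG1, the cytoplasmic GTPase that releases the export adaptor NMD3, had signals of 175.8 with siRNA #1 and 202.3 with siRNA #2, against 261.6 and 252.6 with control siRNA. Both siRNA arrays lay clearly below the controls. Its log2 fold change was -0.45 (SE 0.15), just short of the threshold (adjusted p = 0.0522 in limma with the trend). NMD3 itself had 1500.9 and 1657.6 with Las1L siRNA, against 1594.2 and 1825.4 with control siRNA, with a log2 fold change of -0.11 by this probe and -0.22 by its second. EIF6, which keeps the subunits apart until it is evicted, had 2924 and 2639.2 with Las1L siRNA, against 2727.5 and 3040.2 with control siRNA. The groups overlapped for EIF6 and for this NMD3 probe, while the second NMD3 probe had 590.2 and 556.1 with Las1L siRNA, against 628.4 and 712.7 with control siRNA, and did not overlap.

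AFG2A (SPATA5), the homologue of the yeast ATPase that removes Rlp24 from cytoplasmic particles, had a log2 fold change of -0.95 with the largest standard error of the 38, 0.44. Its signals were 40 with siRNA #1 and 14.8 with siRNA #2, against 49.7 and 48.2 with control siRNA. The siRNA #2 signal was under the background limit and was set to the floor of 16, so 1 of 2 Las1L arrays measured the gene and the fold depends on the floor (adjusted p = 0.164, limma trend fit, not past the threshold). A second dim probe gave 36 and 16.6 with Las1L siRNA, against 29.1 and 23.2 with control siRNA, and a log2 fold change of -0.09. With the mean over both probes the log2 fold change was -0.52, and with a floor of 50 all arrays were at the floor.

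**Figure D3:**
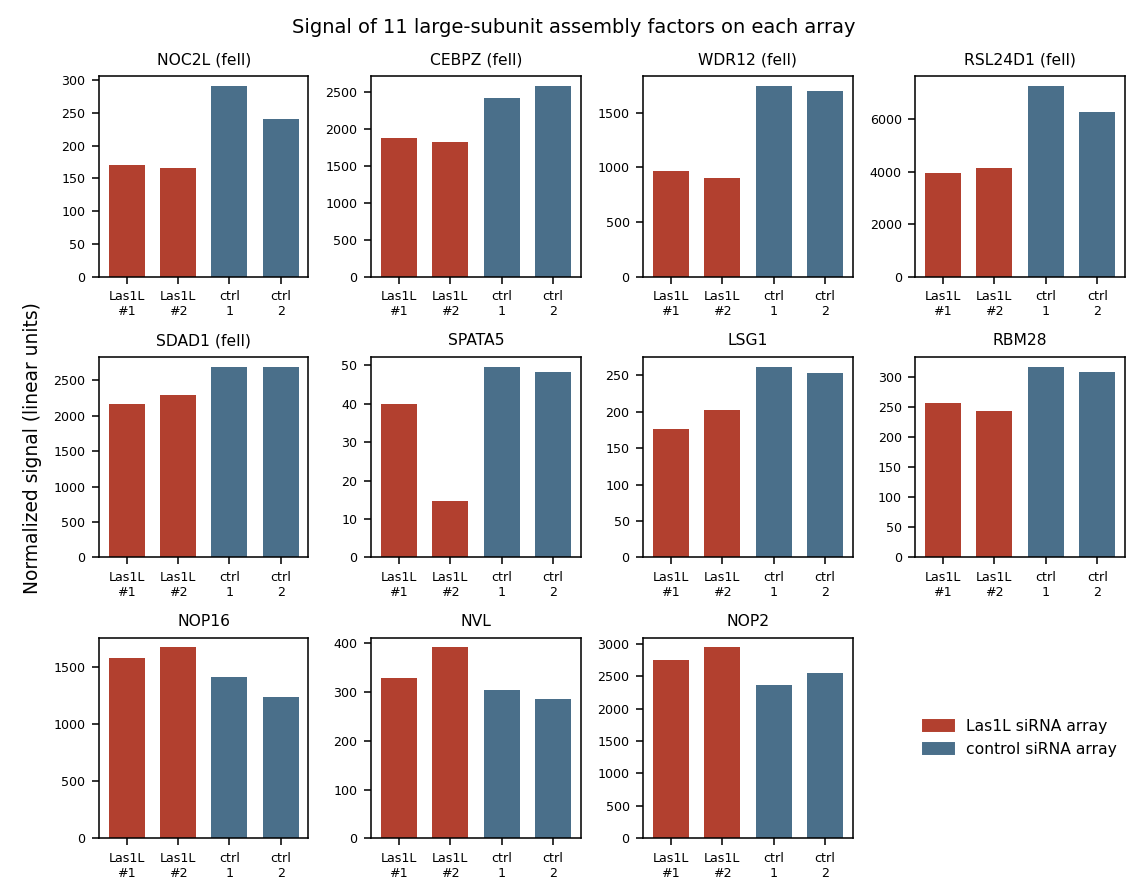
Normalized signal (linear units from 0) on each array for the 11 factors described in full, Las1L siRNA arrays to the left of control siRNA arrays, with a separate scale for each gene. In the 5 panels marked as fallen, both Las1L arrays lie below both control arrays, as for WDR12 at 967.3 and 898.8 against 1748.8 and 1703.3.

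For 11 of the 38 factors more than 1 probe was tested, which is a check on single probes. In 9 of them all probes had the same sign. The exceptions were NSA2, at 0.01 and -0.11, and NOP2, whose exception was a probe near background. WDR12, BRIX1 and PAK1IP1 had probes within 0.1 of each other on the log2 scale, while DDX51, NLE1 and AFG2A differed more between probes. Among the factors that fell only WDR12 had a second probe. NOC2L, CEBPZ, RSL24D1 and SDAD1 had 1 probe each, so this check does not cover them.

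**Figure D4:**
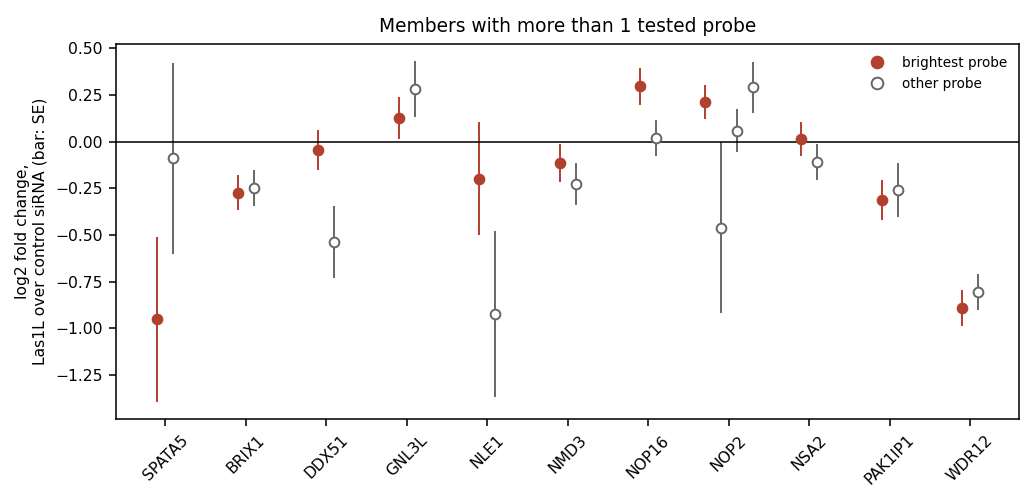
Log2 fold change, Las1L siRNA over control siRNA, with its standard error for every tested probe of the 11 factors with more than 1 tested probe. Filled points are the brightest probes, and both WDR12 probes lie at -0.89 and -0.80.

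Each siRNA was also set against the same pair of control arrays. The comparisons share those controls, so they are given side by side. The median log2 fold change of the 38 was -0.19 with siRNA #1 and -0.16 with siRNA #2. Log2 fold changes with siRNA #1 and siRNA #2 were -0.84 and -0.94 for WDR12. They were -0.78 and -0.71 for RSL24D1. Those of NOC2L were -0.64 and -0.68, and those of CEBPZ -0.41 and -0.46. These genes passed a test whose spread includes the gap between the siRNAs, so a small gap is partly a condition of their choice. SDAD1 had -0.31 and -0.23, LSG1 -0.55 and -0.35, and AFG2A -0.29 and -1.61, the last fixed by the floor. In limma with 3 groups, in which the spread comes from the control pair alone, 0 of 38 factors passed for either siRNA (lowest adjusted p = 0.281 for siRNA #1 and 0.26 for siRNA #2) or between the siRNAs. With 1 array each, such p-values are no measure of likeness between the oligonucleotides.

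**Figure D5:**
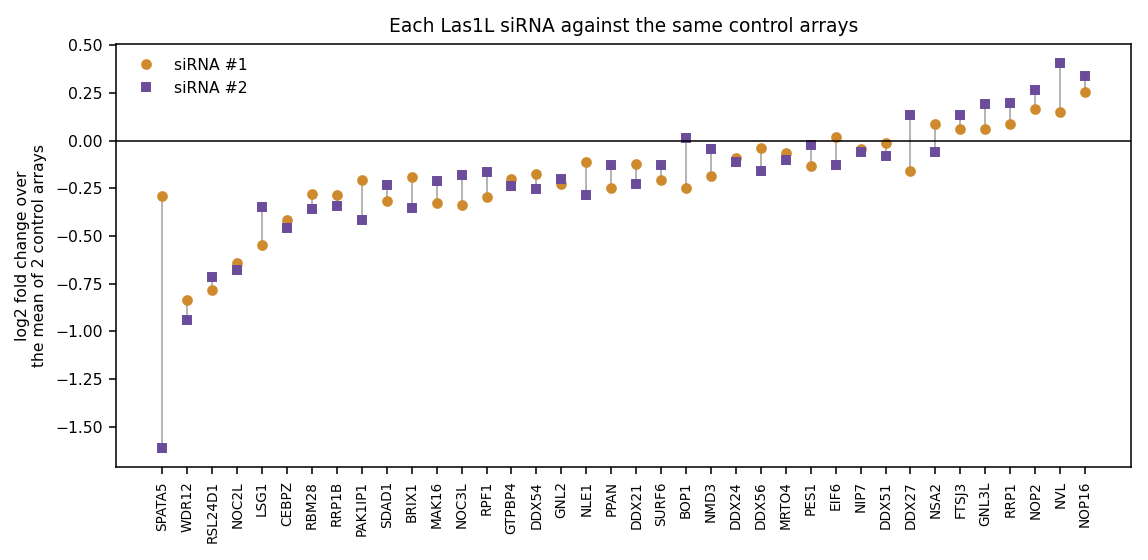
Log2 fold change of each factor over the mean of the 2 control arrays (vertical axis), with siRNA #1 as circles and siRNA #2 as squares, ordered by the mean of both. AFG2A (drawn as SPATA5) has the widest gap, -0.29 with siRNA #1 and -1.61 with siRNA #2, where the siRNA #2 signal was set to the floor of 16, and BOP1, EIF6, DDX27 and NSA2 lie on opposite sides of 0.

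A further list of 31 large-subunit assembly factors, LAS1L and its complex partners included, held 25 tested genes. With LAS1L left aside, 6 of 24 fell (25.0%) and 1 rose, beside 9.17% and 9.64% of all tested genes, and the median log2 fold change was -0.21. In limma without the trend 0 of the 24 passed, and 7 had an unadjusted p under 0.05. GRWD1, a nucleolar WD-repeat histone-binding protein, had signals of 606.5 and 593.8 with Las1L siRNA, against 911.8 and 946.9 with control siRNA, and fell by 0.63 (SE 0.10, adjusted p = 6.26e-04 in limma with the trend). DDX55 fell by 0.43, NIFK, which binds the Ki-67 protein, by 0.42 and RPF2, which brings the 5S ribonucleoprotein to the particle, by 0.35. The export receptor XPO1 fell by 0.33 and PA2G4, the homologue of yeast Arx1, by 0.28. DDX31, a helicase, rose by 0.39. PA2G4 and DDX31 were just inside the threshold (adjusted p = 0.0464 and 0.0461 in limma with the trend). The 6 genes not tested, NOL9, SENP3, URB1, WDR74, TMA16 and NPM1, had a named probe above background on at most 1 array. Each had only 1 named probe, and a probe under the limit does not show that its gene is not expressed.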

How the data were processed

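Gene expression was measured in 4 samples of HCT116 cells. The deposited values are probe intensity on a linear scale, made with GenomeStudio per the submitters' processing notes, with its version and its background and normalization options not given in the sources used here. Deposited intensity values were below 0 for 26.9% of probes on each array and had a median of 14.9 on each. A second table with 8 value columns was not used, because its column names match no sample.

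A floor of 16 was applied before the log2 transform, which compresses the fold changes of dim genes. The background limit, 28.1, is the one-sided 0.05 point of noise with a root mean square of 17.1, estimated from values below 0. Probes above it on at least 2 arrays were kept, 17689 of 47323. Probes were named from a platform annotation of 2016, updated by gene ID to RefSeq symbols of GRCh38.p14. A single symbol was given for 30113 probes, several for 8 and none for 17202, and 30074 of the single symbols were matched. The brightest tested probe stood for each gene.

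The 2 groups were compared across all probes with limma 3.58.1 in R 4.3.3 (lmFit and eBayes, two-sided, Benjamini-Hochberg over all tested probes), without and with an intensity trend. The prior weighed as 2.21 degrees of freedom without the trend and 13.8 with it, beside 2 from each gene, so the trend fit rests mostly on the shared variance. The members, stage groups, lists and fits were chosen with earlier results of these data known. Members past the threshold of the trend fit, and the 3 largest falls and 3 largest rises besides, are described in full, with all other members by their values. Alternatives covered the floor, an offset of 64, the filter, the mean over probes, centring and leaving out each array. The number of arrays limits the precision.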

Additional observations from a re-analysis of the deposited data

Results flagged for a closer look

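DDX27 and NSA2 drew attention because their siRNA arrays lay on opposite sides of the control pair. The groups overlapped for 8 of the 38 factors and for 4218 of all 10466 tested genes. How many of all genes had this order was not counted, so it is not shown to be unusual. DDX27, a helicase, had a signal of 511.2 with siRNA #1, below both controls, and of 627.6 with siRNA #2, above both, against 538.8 and 604.6 with control siRNA. The log2 difference of siRNA #1 minus siRNA #2 was -0.296 (SE 0.20), and limma with 3 groups gave an adjusted p of 1. NSA2 had 5493 with siRNA #1, above both controls, and 4951.4 with siRNA #2, below both, against 5313.5 and 5022.3 with control siRNA, a log2 difference of 0.15 (SE 0.18) with an adjusted p of 1 in limma with 3 groups. The second NSA2 probe had 3809.4 with siRNA #1 and 3361.6 with siRNA #2, against 4075.1 and 3655.1 with control siRNA. There siRNA #1 was again higher than siRNA #2, but it lay between the controls and not above them. Each siRNA has 1 array, so neither difference has a replicate check.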

How the results depend on the processing

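In the trend fit the count of factors past the threshold was 5. Using a floor of 50 gave 0, dropping the filter on dim probes 0, dropping the trend 0, and fitting 3 groups 1 (WDR12). The offset of 64, a stricter background limit and the demand that all 4 arrays exceed background each gave 9, the same 5 plus BRIX1, LSG1 and PAK1IP1 as lower and NOP16 as higher. An adjusted p under 0.1 gave 12, and leaving out 1 array gave 0 to 4 with fewer samples. The floor of 50 changes no member's own values except those of AFG2A, so the loss there comes from the fit over all probes, and its cause was not tested. Without the trend the count of 0 became 4 with the offset, 3 when all 4 arrays had to exceed background, 2 under the stricter limit, 5 with the trend and 2 at an adjusted p under 0.1. The causes of these shifts were not tested.

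The median of -0.18 was -0.15 with the offset, and lay between -0.19 and -0.15 with 1 array left out. The counts of 24 below and 6 above both controls stayed within 1.5 times in all settings run. A floor or an offset cannot reverse the order of arrays, and leaving out an array cannot lower the counts. This stability is thus partly built in. LAS1L, at -2.02, kept that value but lost its call with a floor of 50 (adjusted p = 0.0791 in limma), without the filter (0.169) and without the trend (0.0555). With 1 array left out it lay between -2.23 and -1.81, and the call was lost without either siRNA array, where the spread comes from the control pair alone. For siRNA #1 the count of 0 became 2 with the offset (RSL24D1 and WDR12), and for siRNA #2 it became 3 (these and AFG2A). In 12 settings beside the reported one, WDR12, RSL24D1, NOC2L, CEBPZ and SDAD1 kept their direction, which was largely fixed in advance. The floor of 50, the filters, centring and dropping the trend left their log2 fold changes unchanged. Both Las1L arrays lay below both control arrays for each, so neither the offset nor leaving out 1 array could reverse a direction. No paired analysis was possible because the numbers of the Las1L arrays name siRNAs and not replicates.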
